A study of Arabidopsis thaliana with 36 samples.

Results

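The genes described here are the 8 Arabidopsis thaliana genes, of 33602 in the count table, whose description in the authors' table for the hypocotyl names a 40S or a 60S ribosomal protein. They are 4 genes of the small (40S) and 4 of the large (60S) subunit of the cytosolic ribosome. By annotation 3 encode proteins, namely P40 (AT1G72370) and RPSAb (AT3G04770), which both encode ribosomal protein SA, and RPL18AA (AT1G29970), which encodes L18A. The other 5 are transcribed pseudogenes: AT1G09486 and AT1G31355 for L21, AT1G80800 for S12, AT2G24110 for S11 and AT5G42445 for L3. The wording did not catch most ribosomal protein genes: 391 descriptions in the same table contain the word ribosomal, those of organelle ribosomes included, and 383 of these genes were not chosen. The 8 are therefore called the 40S/60S-described genes, and a panel of 31 cytosolic ribosomal protein genes listed by name is set beside them.

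The cytosolic ribosome of plants is built from RNA and from ribosomal proteins, each encoded by a small family of nuclear paralogues. Transcripts of these genes are abundant in growing tissue, and together with ribosome assembly factors and translation factors they tend to be regulated as one group in response to light, sugar and growth signals. A low ratio of red to far-red light (R/FR) is the signal of shade by neighbouring leaves. It is read by phytochromes, and it makes the hypocotyl, the stem below the cotyledons, elongate.

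P40 lies at chr1:27242943-27244931 and RPSAb at chr3:1309294-1310887, RPL18AA at chr1:10498351-10501452, all on the minus strand in the authors' table (TAIR10).

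Seedlings of the Col-0 accession, with no mutation or transgene in the labels, were grown for 5 days at 21 °C with 16 h of light and 8 h of dark per day. On the following day, at ZT2 (2 h after lights on), 1 set was left in high R/FR and another was placed in low R/FR. Cotyledons and hypocotyls of 50 seedlings per sample were dissected after fixation at 0 min (high R/FR only) and at 15, 45, 90 and 180 min of either light. This gave 18 groups of 2 libraries, 36 in all. Each sample was 1 plate and no separate cultures or days are recorded, so p-values measure the spread between these samples.

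Library totals ranged from 24897594 to 45115165 gene counts in cotyledons and from 23560273 to 34231167 in hypocotyls. In replicate 2 of the hypocotyl in high R/FR at 15 min, reads without a unique position came to 39.0 per 100 gene counts, against a hypocotyl median of 8.84. The light labels were checked with HFR1, a shade marker, which rose in low R/FR at 15 and at 180 min in both organs, by 3.71 ± 0.13 (log2, SE) in cotyledons and 2.1 ± 0.12 in hypocotyls at 180 min. The organ labels were checked with 5 mesophyll genes, which summed to 70860 to 89350 CPM (counts scaled to library size by edgeR) in cotyledons and to 15100 to 25750 CPM in hypocotyls. All 6 shoot apex genes that could be tested, of 10 listed, were higher in hypocotyls, and the 10 summed to 198.2 to 496.8 CPM there. Whether this RNA came from apex tissue in the hypocotyl samples was not tested. None of 8 root genes had enough counts to be tested. In whole organs a change in the number of cells of a type and a change in RNA per cell cannot be told apart.

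P40 and RPSAb are paralogues, and their coding sequences show how separately they can be counted. Their transcripts were 80.9% identical over 761 aligned bases in the RefSeq annotation of TAIR10.1. A coding stretch of 90 bases without gaps is shown for each, 5′ to 3′, with the 17 differing bases in capitals.
P40 (chr1:27244713-27244802, minus strand): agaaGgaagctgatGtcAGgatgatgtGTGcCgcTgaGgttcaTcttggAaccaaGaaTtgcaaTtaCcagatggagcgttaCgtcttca
RPSAb (chr3:1310714-1310803, minus strand): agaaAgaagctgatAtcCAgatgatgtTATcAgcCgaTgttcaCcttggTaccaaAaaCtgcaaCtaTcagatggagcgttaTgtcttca
Of the stretches of 50 bases in the P40 transcript, 6.0% also occurred in another transcript, that of the neighbouring gene AT1G72360, and none came from RPSAb. For RPSAb 6.2% were shared with its neighbour AT3G04780. Counts of these paralogues could therefore be separated nearly along their whole length.

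The L21 pseudogenes shared more of their length with other transcripts than P40 and RPSAb did. AT1G09486 was 95.4% identical over 325 bases to AT1G57660, an L21 gene, and a stretch that differs by 1 base (in capitals) is shown because reads from it could come from either gene.
AT1G09486 (chr1:3063180-3063269, minus strand): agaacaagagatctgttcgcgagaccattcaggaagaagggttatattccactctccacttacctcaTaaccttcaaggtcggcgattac
AT1G57660 (chr1:21355594-21355683, plus strand): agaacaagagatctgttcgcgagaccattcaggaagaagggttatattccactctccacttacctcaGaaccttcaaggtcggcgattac
AT1G31355, the other L21 pseudogene, was 87.9% identical to AT1G57860 over 422 bases, with 14 differing bases (in capitals) in the stretch shown.
AT1G31355 (chr1:11229636-11229725, plus strand): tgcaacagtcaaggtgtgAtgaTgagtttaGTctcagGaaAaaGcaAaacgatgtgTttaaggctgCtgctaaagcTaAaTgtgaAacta
AT1G57860 (chr1:21430153-21430242, minus strand): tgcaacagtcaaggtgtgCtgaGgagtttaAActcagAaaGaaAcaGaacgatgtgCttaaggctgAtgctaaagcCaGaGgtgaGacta
Among stretches of 50 bases, 41.9% of those of AT1G09486 were shared with AT1G31355, AT1G57660 or AT1G57860, and 28.7% of those of AT1G31355 were shared with AT1G09486. Their counts are reported as uncertain for this reason. None of the stretches of AT1G80800, AT2G24110 or AT5G42445 was shared. RPL18AA shared 52.1% of its stretches with AT1G29965, an L18a gene on the same strand that overlaps 1112 of its 3102 bases. AT1G29965 itself had 0 to 7 counts per library, and how reads of the overlap were assigned is not given in the sources used here, so RPL18AA is uncertain too.

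Promoters of plant ribosomal protein genes often hold a telo box (AAACCCTA) and site II elements (TGGGCT or TGGGCC), to which TCP factors can bind. Both strands were searched from 250 bases before to 50 bases after each gene start in the RefSeq annotation. P40 held the only telo box among the 8 genes, 43 to 36 bases before its RefSeq start and in the reverse orientation. The RPSAb window held neither motif. In the authors' table RPSAb starts further downstream, at chr3:1310887, so the bases just before that start were not searched. The P40 start is the same in both annotations. Both upstream sequences of 250 bases are shown since both genes rose in hypocotyls at 90 and 180 min of low R/FR and only the P40 sequence holds the motif, in capitals.
P40 (chr1:27244932-27245181, minus strand): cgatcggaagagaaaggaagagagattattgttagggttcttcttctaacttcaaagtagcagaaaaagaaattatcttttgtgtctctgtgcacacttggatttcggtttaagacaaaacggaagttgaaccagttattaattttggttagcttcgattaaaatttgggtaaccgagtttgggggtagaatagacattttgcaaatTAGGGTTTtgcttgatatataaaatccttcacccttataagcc
RPSAb (chr3:1311130-1311379, minus strand): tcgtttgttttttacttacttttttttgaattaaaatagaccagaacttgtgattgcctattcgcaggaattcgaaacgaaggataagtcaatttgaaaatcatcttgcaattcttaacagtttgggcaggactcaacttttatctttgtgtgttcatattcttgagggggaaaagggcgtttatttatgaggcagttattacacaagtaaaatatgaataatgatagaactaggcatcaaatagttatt
Site II elements occurred before the RefSeq starts of RPL18AA, AT1G80800, AT2G24110 and AT5G42445. In the authors' table AT1G80800 starts further downstream, at chr1:30364013, so its window is not next to that start. The AT1G80800 window held 4 of the elements, in capitals here.
AT1G80800 (chr1:30363202-30363451, plus strand): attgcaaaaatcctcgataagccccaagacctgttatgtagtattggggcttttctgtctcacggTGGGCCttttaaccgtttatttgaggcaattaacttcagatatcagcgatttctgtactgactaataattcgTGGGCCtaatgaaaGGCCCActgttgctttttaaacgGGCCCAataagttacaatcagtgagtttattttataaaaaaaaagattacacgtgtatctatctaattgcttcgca
A telo box was present in 6.2% of all 27443 protein-coding promoters searched and in 41.9% of the panel of 31 ribosomal protein genes. For site II elements the shares were 21.7% and 74.2%. In the 250 bases before the start alone the telo box shares were 4.5% and 9.7% and the site II shares 19.2% and 58.1%. A match describes these letters and does not show that a factor binds.

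P40 was by far the most abundant of the 8 genes. It made up 84.1% to 93.2% of their summed counts in every library, so any sum over the 8 genes is in effect a P40 value. In high R/FR its median level per length was 283.7 CPM per kb of exon in cotyledons and 170.8 in hypocotyls. RPL18AA followed with 9.75 CPM per kb in cotyledons and 12.9 in hypocotyls, and RPSAb with 4.17 and 2.72. The medians of the pseudogenes lay between 0.219 and 1.90 CPM per kb. The lengths are those of RefSeq exons, and the gene spans in the authors' table can differ from them. AT1G80800 spans only chr1:30364013-30364310 in the authors' table, against 1149 bases of RefSeq exon. Levels per kb of the pseudogenes, and the rank of AT1G80800 beside RPSAb, are therefore uncertain. Their counts ranged from 0 to 102 per library, and AT5G42445 never exceeded 21.

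The first question is how the genes differ between the organs without shade. Over the 20 libraries of the high R/FR groups, in a model that also held time, all 8 differed between hypocotyl and cotyledon by edgeR's quasi-likelihood test at an adjusted p under 0.05 (Benjamini-Hochberg over all genes tested), 2 higher and 6 lower in the hypocotyl. Of all 19825 genes tested, 80.2% were called, 40.8% higher and 39.4% lower, so the number called is close to the background. P40 was lower in the hypocotyl by 0.56 ± 0.09 (log2, SE; adjusted p = 1.39e-05). RPSAb was lower by 0.49 ± 0.17 (adjusted p = 0.0120). RPL18AA went the other way and was 0.36 ± 0.06 higher (adjusted p = 2.42e-05). Each value is 1 organ difference over all times, and the difference did not stay constant. Cotyledon and hypocotyl means of RPSAb were 12.5 and 6.06 CPM at 0 min but 2.31 and 3.77 CPM at 180 min. For P40 they were 428 and 278 CPM at 0 min and 165 and 174 CPM at 180 min. For RPL18AA they were 14.4 and 23.1 CPM at 0 min and 20.8 and 21.3 CPM at 180 min. Of the L21 pseudogenes, AT1G31355 was lower by 1.16 ± 0.12 and AT1G09486 was higher by 0.75 ± 0.15. AT1G80800 was lower by 0.98 ± 0.16 and AT5G42445 by 1.76 ± 0.35. AT2G24110 was lower by 0.41 ± 0.18 with an adjusted p of 0.0466. That call ended without any 1 of 12 libraries, with adjusted p of 0.0539 to 0.158 and changes up to -0.26: cotyledon replicate 1 at 0, 15, 90 and 180 min and replicate 2 at 15 and 45 min, and hypocotyl replicate 1 at 0, 15 and 90 min and replicate 2 at 0, 15 and 45 min. With the replicate number as a block its adjusted p was 0.0766, and it also lost the call with RLE scaling, no filter on low counts and DESeq2 (adjusted p = 0.0521, 0.0577 and 0.0594). All 31 panel genes were lower in the hypocotyl, with a median log2 difference of -0.67 against 0.01 over all genes. All organ differences depend on edgeR's scaling factors (TMM), which were 0.767 to 0.854 in cotyledons and 1.185 to 1.29 in hypocotyls. As an unscaled share of gene counts, the panel made up 0.788% to 0.898% in cotyledons and 0.695% to 0.753% in hypocotyls at 0 min. At 180 min in high R/FR that share was 0.300% in cotyledons and 0.462% to 0.479% in hypocotyls, the other direction.

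Both SA genes fell between 0 and 180 min in high R/FR, in both organs. In cotyledons P40 stood at 468 and 387 CPM at 0 min, 368 and 363 at 45 min, 314 and 302 at 90 min, and 168 and 162 at 180 min. The pairs at 0 and 180 min did not overlap, and the fall was 1.38 ± 0.10 on the log2 scale (adjusted p = 5.42e-13). RPSAb fell further, from 13.6 and 11.3 CPM at 0 min through 6.24 and 6.05 at 45 min to 2.69 and 1.94 at 180 min, which is a log2 change of -2.44 ± 0.15 (adjusted p = 4.53e-14). In cotyledons its group means ran in the order of time, from highest at 0 min to lowest at 180 min. The ratio of P40 to RPSAb, in counts per kb, moved from 39.4 and 39.1 at 0 min to 71.4 and 95.3 at 180 min.

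**Figure D1:**
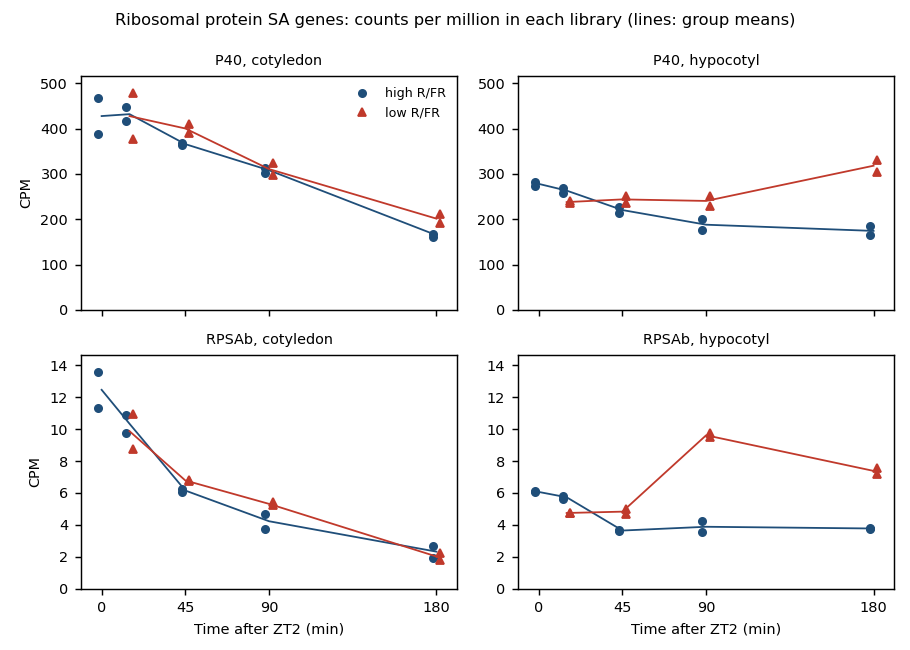
CPM (y axis, from 0) of P40 and RPSAb in each library against time (x axis, minutes after ZT2), by organ, with circles for high R/FR, triangles for low R/FR and lines through group means. In hypocotyls both low R/FR libraries lie above both high R/FR libraries at 90 and 180 min, while in cotyledons the symbols fall with time in either light.

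In cotyledons 7 of the 8 genes were called between 0 and 180 min, 2 higher and 5 lower, where 55.6% of 20126 genes tested were called (32.1% higher, 23.5% lower). The median of all genes was 0.11 and that of the 8 genes was -1.39. AT2G24110, the S11 pseudogene, fell from 2.23 and 1.25 CPM to 0.440 and 0.266, by 2.30 ± 0.37 (log2; adjusted p = 4.02e-06). AT1G09486 fell by 1.40 ± 0.36. AT5G42445, the L3 pseudogene, had 40 counts over the 0 min pair and 1 over the 180 min pair, a ratio of 0.0212 with an exact 95% interval of 0.000523 to 0.125 that covers counting error only. RPL18AA rose over the same time, from 14.9 and 13.9 CPM to 21.3 and 20.4 CPM, by 0.53 ± 0.10 (adjusted p = 5.31e-05). AT1G80800 also rose, from 1.89 and 1.68 CPM to 4.40 and 2.89 CPM (1.02 ± 0.27, adjusted p = 0.00175). Without replicate 1 at 180 min its change was 0.70, with an adjusted p of 0.0676. AT1G31355 was not called (-0.31 ± 0.26). Over the same time the 5 mesophyll genes went from a sum of 70860 to 75010 CPM at 0 min to 81120 to 82460 CPM at 180 min, with 3 of 5 called higher, and their part in these changes was not tested.

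In hypocotyls 3 genes were called over 180 min in high R/FR, all lower, where 44.9% of genes were called (22% higher, 22.9% lower). P40 went from 282 and 274 CPM to 164 and 184 CPM, a log2 change of -0.67 ± 0.10 (adjusted p = 1e-06). RPSAb went from 6.09 and 6.03 CPM to 3.76 and 3.77 CPM, a change of -0.69 ± 0.14 (adjusted p = 0.000176). AT2G24110 changed by -1.15 ± 0.34 (adjusted p = 0.00614), and by -0.89 with an adjusted p of 0.0892 without replicate 1 at 0 min. RPL18AA stood at 23.4 and 22.7 CPM at 0 min and at 19.5 and 23 CPM at 180 min, so the pairs overlapped. The 10 shoot apex genes summed to 395.9 to 452.2 CPM at 0 min and 310 to 315 CPM at 180 min, with 1 of 6 tested called lower, and their part in these changes was not tested.

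The difference between the organs in this change was tested as a contrast added after the data were seen. It was called for 5 of the 8 genes, 3 higher and 2 lower in the hypocotyl, where 34% of genes were called (14.2% higher, 19.9% lower). RPSAb differed by 1.75 ± 0.21 (log2; adjusted p = 1.77e-07) and P40 by 0.70 ± 0.13 (adjusted p = 0.000143), both in the direction of a smaller fall in the hypocotyl. RPL18AA differed by -0.65 ± 0.14 (adjusted p = 0.000444). AT5G42445 was called with an adjusted p of 0.0238, which rests on the single count in the cotyledon pair at 180 min, and the call ended without any of 3 libraries (cotyledon replicate 2 and hypocotyl replicate 3 at 180 min, hypocotyl replicate 2 at 0 min), with adjusted p between 0.0598 and 0.368. AT1G80800 (-1.08 ± 0.40, adjusted p = 0.0366) lost its call without cotyledon replicate 1 or 2 at 0 min, cotyledon replicate 1 at 180 min or hypocotyl replicate 1 at 0 min or 2 or 3 at 180 min, with adjusted p of 0.0619 to 0.609, and stood at -0.34 without hypocotyl replicate 1 at 0 min. Without that library, in turn, AT1G09486 was called (1.38, adjusted p = 0.0279) and so was AT2G24110 (1.49, adjusted p = 0.0456). AT2G24110 was also called without cotyledon replicate 2 at 0 min (1.51, adjusted p = 0.0277).

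**Figure D2:**
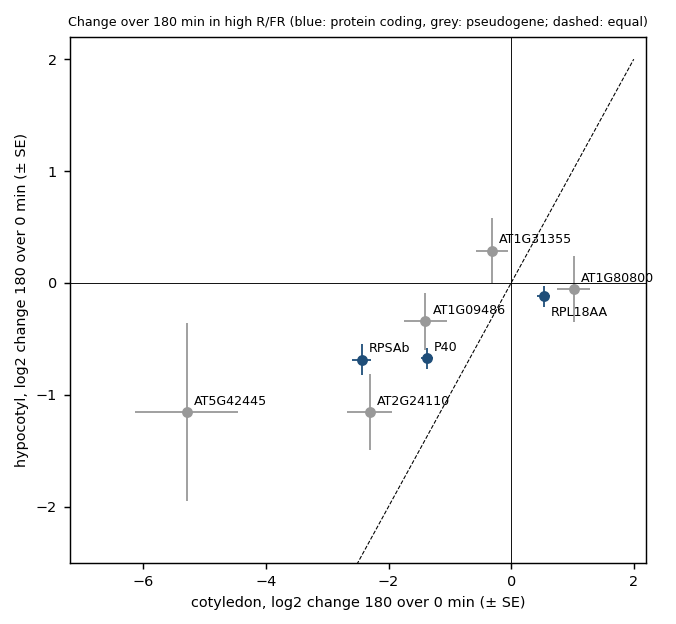
Log2 change from 0 to 180 min in high R/FR in cotyledons (x axis) against hypocotyls (y axis), with SE bars, for protein-coding genes (blue) and pseudogenes (grey), with a dashed line of equal change. P40 and RPSAb lie above the line at -1.38 and -2.44 on the x axis, and RPL18AA lies below it; the point of AT5G42445 rests on 1 count at 180 min.

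The related lists moved more uniformly than the 8 genes. Over 180 min in high R/FR all 31 panel genes fell in both organs, with median log2 changes of -1.36 in cotyledons and -0.67 in hypocotyls. Among all genes tested, 23.5% were called lower in cotyledons and 22.9% in hypocotyls. Of 33 ribosome biogenesis genes, which make and modify ribosomal RNA and assemble subunits, 31 fell and 2 rose in cotyledons (median -2.30), and 32 fell and 1 rose in hypocotyls (median -1.09). Of 25 translation factor genes 21 fell and 1 rose in cotyledons, and 19 fell in hypocotyls. The fall of the coding relatives of the 5 pseudogenes was called in both organs, from -2.05 (AT4G30800) to -1.36 (AT1G43170) in cotyledons. AT2G32060, the functional S12 gene, fell by 1.94 ± 0.15 in cotyledons, where its pseudogene AT1G80800 rose by 1.02 as given above.

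The second question is the response to low R/FR, taken as low against high R/FR at the same time. No gene of the 8 was called in either organ at 15 or 45 min, or in cotyledons at 90 min, by edgeR or by DESeq2. In cotyledons 0.219% of all genes were called at 15 min, 3.62% at 45 min (2.31% higher, 1.31% lower) and 10.8% at 90 min (4.41% higher, 6.35% lower). In hypocotyls 0.179% were called at 15 min (0.159% higher, 0.0199% lower) and 3.31% at 45 min (2.09% higher, 1.22% lower). At an unadjusted p under 0.05 there were 0, 0 and 3 of the 8 genes in cotyledons at 15, 45 and 90 min, and 1 and 1 in hypocotyls at 15 and 45 min. The smallest of these p-values was for RPSAb in hypocotyls at 45 min, where it had 3.69 and 3.58 CPM under high and 4.65 and 5.00 CPM under low R/FR. The pairs did not overlap, and the change was 0.41 ± 0.14 (log2; adjusted p = 0.142). In the other 4 comparisons the gene with the smallest p was AT1G09486 in cotyledons at 15 min (-0.28 ± 0.33), AT2G24110 at 45 min (0.63 ± 0.33), AT1G80800 at 90 min (0.55 ± 0.25) and AT1G80800 in hypocotyls at 15 min (-0.68 ± 0.30). Without replicate 1 of the hypocotyl in high R/FR at 15 min, RPL18AA was called (0.38, adjusted p = 0.0485), and that fit rests on the library rich in reads without a unique position. Without that library no gene of the 8 was called at 15 min.

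In hypocotyls at 90 min 3 of the 8 genes were called, 2 higher and 1 lower, where 37.6% of genes were called (19.1% higher, 18.5% lower). RPSAb had 3.52 and 4.23 CPM under high and 9.75 and 9.48 CPM under low R/FR. The pairs were far apart, and the change was 1.31 ± 0.13 (log2, SE; adjusted p = 2.00e-09). P40 had 199 and 176 CPM under high and 251 and 230 CPM under low R/FR, a change of 0.36 ± 0.09 (adjusted p = 0.00337). That call ended without high R/FR replicate 2 (0.22, adjusted p = 0.165) and without low R/FR replicate 1 (0.25, adjusted p = 0.12). RPL18AA fell from 22.2 and 20.9 CPM to 15.3 and 15.0 CPM, by 0.51 ± 0.09 (adjusted p = 5.68e-05). The ratio of P40 to RPSAb in counts per kb was 64.9 and 47.6 in high R/FR and 29.4 and 27.7 in low R/FR, the lowest of all 36 libraries. Of 5 mesophyll genes 2 were lower in low R/FR at 90 min, and their sum was 21950 to 24880 CPM in high and 20960 to 21490 CPM in low R/FR. Their part in the changes of the 3 genes was not tested.

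At 180 min in hypocotyls 6 of the 8 genes were called, 5 higher and 1 lower, where 63.8% of genes were called (31.2% higher, 32.6% lower). The median log2 change of the 8 was 0.72 against -0.04 for all genes. P40 had 164 and 184 CPM under high and 331 and 305 CPM under low R/FR, group means of 174.2 ± 13.9 and 318.1 ± 18.5 CPM (SD, n = 2). The pairs did not overlap, and the change was 0.87 ± 0.10 (log2, SE; adjusted p = 3.74e-09). RPSAb had 3.76 and 3.77 CPM under high and 7.57 and 7.19 CPM under low R/FR, a change of 0.97 ± 0.14 (adjusted p = 3.79e-07). RPL18AA had 19.5 and 23 CPM under high and 14.3 and 15.4 CPM under low R/FR, a change of -0.52 ± 0.09 (adjusted p = 2.15e-05). These 3 calls held when any 1 of the 4 libraries was left out. The summed share of gene counts of all 8 genes, which is mostly P40, was 1.68 ± 0.13 (SD) times as high in low as in high R/FR, and 1.19 times as high at 90 min.

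Among the pseudogenes in hypocotyls at 180 min, AT1G31355 rose from 1.28 and 0.936 CPM to 2.87 and 2.47 CPM. This was a change of 1.26 ± 0.25 (adjusted p = 8.06e-05), called without any 1 of the 4 libraries too. AT1G09486 had 1.17 and 1.19 CPM under high and 1.49 and 2.03 CPM under low R/FR (0.57 ± 0.25, adjusted p = 0.0473). Its call ended without high R/FR replicate 2 (0.45, adjusted p = 0.237), without high R/FR replicate 3 (0.49, adjusted p = 0.195) and without low R/FR replicate 3 (0.24, adjusted p = 0.522). AT5G42445 had 1 and 4 counts in high and 13 and 5 counts in low R/FR, a fold of 3.53 with an exact 95% interval of 1.26 to 12.2 for counting error only. Its call (adjusted p = 0.0363) ended without high R/FR replicate 2 (adjusted p = 0.373) and without low R/FR replicate 1 (adjusted p = 0.455). AT1G80800 (-0.41 ± 0.31) and AT2G24110 (-0.60 ± 0.41) were not called. Both low R/FR libraries lay below both high R/FR libraries for each, but with 2 libraries per group that order alone does not show a fall. The functional relatives of all 5 pseudogenes rose, AT1G57660 by 0.82 ± 0.09, AT1G57860 by 0.70 ± 0.10, AT2G32060 by 1.18 ± 0.15, AT4G30800 by 1.5 ± 0.13 and AT1G43170 by 0.80 ± 0.09. Since AT1G57660 reached 97.9 CPM in hypocotyls and AT1G09486 2.03 CPM, the share of the latter's counts that came from the former was not tested.

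**Figure D3:**
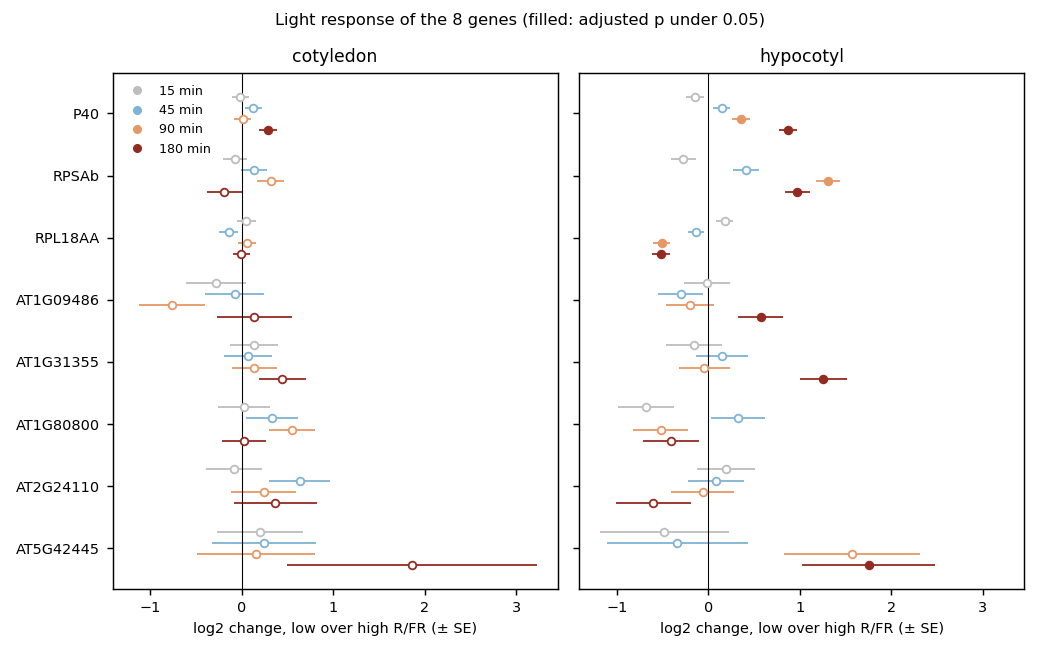
Log2 change in low over high R/FR (x axis, with SE bars) of each of the 8 genes in cotyledons (left) and hypocotyls (right) at 15, 45, 90 and 180 min (colours), filled where the adjusted p was under 0.05. Filled points lie in hypocotyls at 90 and 180 min, with P40 and RPSAb to the right and RPL18AA to the left of 0, and P40 at 180 min is the single filled point in cotyledons.

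**Figure D4:**
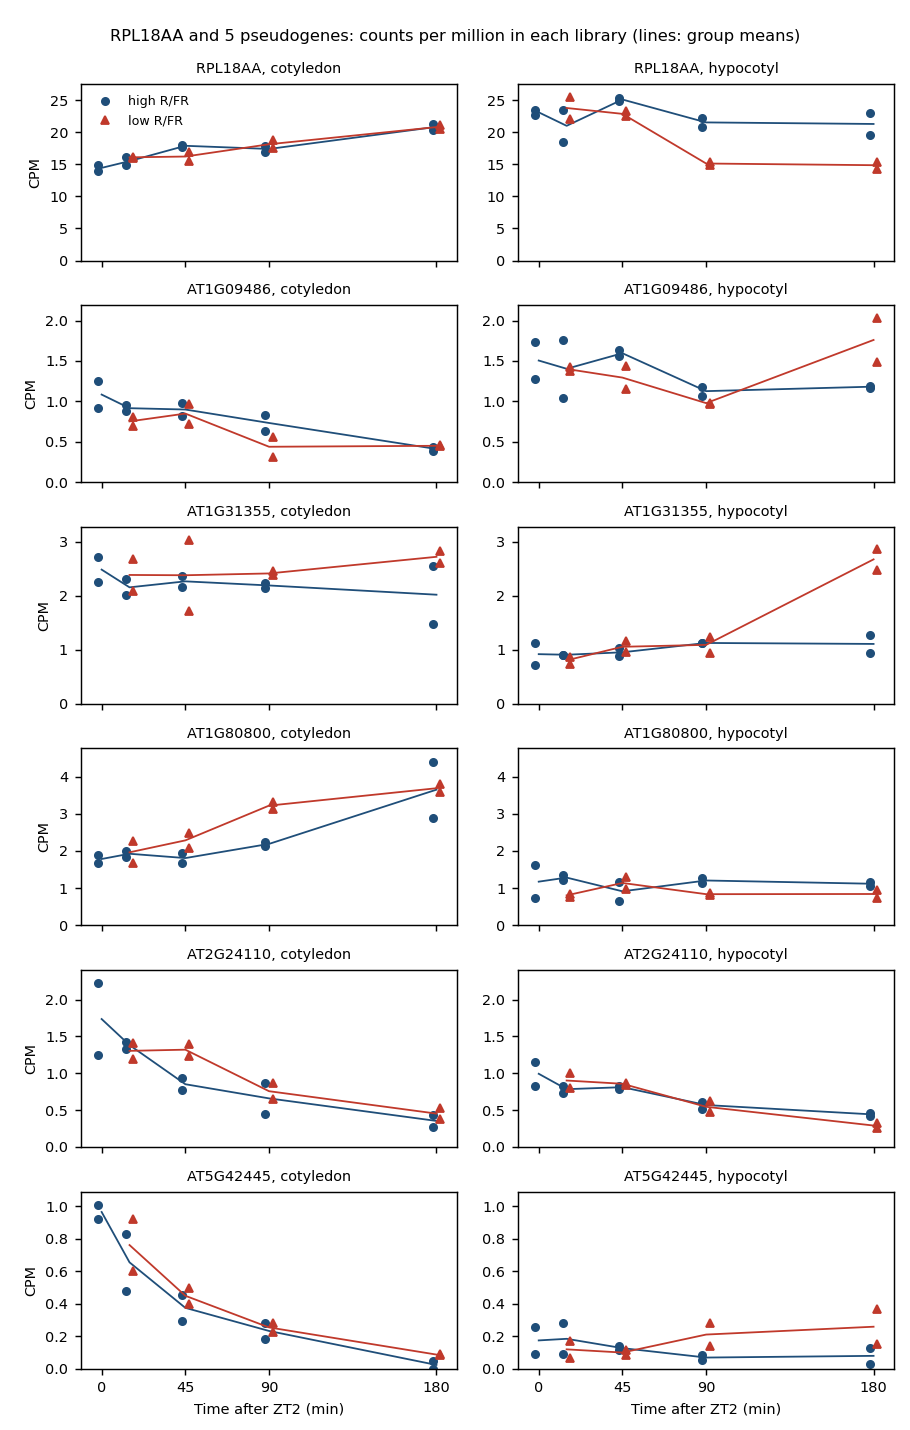
CPM (y axis, from 0) of RPL18AA and the 5 pseudogenes in each library against time (x axis, minutes after ZT2), by organ, with circles for high R/FR, triangles for low R/FR and lines through group means. RPL18AA in hypocotyls drops to 14.3 to 15.4 CPM in the 4 low R/FR libraries at 90 and 180 min, and AT1G31355 reaches 2.47 and 2.87 CPM there at 180 min.

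In cotyledons at 180 min 1 of the 8 genes was called, P40, where 19.5% of genes were called (8.02% higher, 11.5% lower). It had 168 and 162 CPM under high and 191 and 211 CPM under low R/FR, a change of 0.29 ± 0.10 (adjusted p = 0.0315). The call ended without high R/FR replicate 1 (0.32, adjusted p = 0.0899), high R/FR replicate 2 (0.26, adjusted p = 0.176) or low R/FR replicate 2 (0.21, adjusted p = 0.256). RPSAb had 2.69 and 1.94 CPM under high and 2.21 and 1.81 CPM under low R/FR, so the pairs overlapped (-0.19 ± 0.19). Of 5 mesophyll genes 1 was lower, and its part was not tested. RPL18AA overlapped too, at 21.3 and 20.4 CPM in high and 20.4 and 21.2 CPM in low R/FR.

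In the authors' deposited table for the same comparison, P40 had a log2 fold change of 0.87 in hypocotyls and 0.29 in cotyledons at 180 min. The authors' deposited table gave P40 in cotyledons an adjusted p of 0.103, and in hypocotyls gave AT1G09486 0.14 and AT5G42445 0.0726, which are all above 0.05. The authors' deposited table also had RPSAb in hypocotyls at 45 min with a log2 fold change of 0.41 and an adjusted p of 0.038, where the fit to all 36 libraries gave 0.142. Of 64 pairs of gene and comparison, these 4 lay on different sides of 0.05 in the authors' deposited table and in that fit. For RPSAb in hypocotyls the authors' deposited table had 0.97 with an adjusted p of 1.21e-05, and for RPL18AA -0.51 with 0.000242.

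The response differed between the organs by a test of the difference itself. At 45 min no gene of the 8 was called by edgeR or DESeq2, where 0.696% of genes were called (0.293% higher, 0.402% lower), and none had an unadjusted p under 0.05. At 90 min 3 were called, 1 higher and 2 lower in the hypocotyl, where 21.4% of genes were called (12.2% higher, 9.12% lower). RPSAb responded more in the hypocotyl by 0.99 ± 0.20 (log2; adjusted p = 0.000297), and RPL18AA responded in the negative direction by 0.57 ± 0.14 more (adjusted p = 0.00206). P40, called in the hypocotyl alone at 90 min, differed by 0.34 ± 0.13 between the organs and was not called for that difference (adjusted p = 0.0684). The call of AT1G80800 (-1.08 ± 0.39, adjusted p = 0.0473) ended without any 1 of the 8 libraries, with adjusted p of 0.0539 to 0.117. At 180 min 3 were called, 2 higher and 1 lower, where 46.5% of genes were called (23.7% higher, 22.8% lower). They were RPSAb with 1.16 ± 0.23 (adjusted p = 0.000141), P40 with 0.58 ± 0.13 (adjusted p = 0.000675) and RPL18AA with -0.51 ± 0.14 (adjusted p = 0.00229). The P40 difference was 0.37 with an adjusted p of 0.0576 without hypocotyl high R/FR replicate 2. AT1G31355 (0.81 ± 0.36, adjusted p = 0.0666) was called only without cotyledon high R/FR replicate 2 (1.17, adjusted p = 0.0134).

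The response at 180 min was then set against that at 90 min within each organ. In hypocotyls 2 of the 8 genes were called, both higher, where 43.7% of genes were called (20.4% higher, 23.3% lower). AT1G31355 gained 1.30 ± 0.38 (log2; adjusted p = 0.00583) and P40 gained 0.51 ± 0.13 (adjusted p = 0.00254). The P40 call ended without high R/FR replicate 1 at 90 min (0.36, adjusted p = 0.0596) and without high R/FR replicate 2 at 180 min (0.38, adjusted p = 0.0548). RPSAb, which was already 1.31 higher at 90 min, changed by -0.34 ± 0.19 and was not called (adjusted p = 0.155). RPL18AA had the same response at both times within its error (-0.01 ± 0.13). In cotyledons none of the 8 was called by edgeR or DESeq2, where 5.23% of genes were called (2.63% higher, 2.6% lower), and 2 had an unadjusted p under 0.05. The smallest was that of RPSAb (-0.51 ± 0.24, adjusted p = 0.284).

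The panel of 31 ribosomal protein genes shows what the wider group did beside P40 and RPSAb. In hypocotyls 18 rose and none fell at 90 min (median log2 change 0.31), and all 31 rose at 180 min (median 0.94, range 0.39 to 1.43). Over all genes tested, 19.1% were called higher and 18.5% lower at 90 min, and 31.2% and 32.6% at 180 min. RPS6 (AT4G31700), whose protein is a target of S6 kinase, had 132 and 129 CPM under high and 350 and 356 CPM under low R/FR at 180 min, a change of 1.43 ± 0.10. RPL5B (AT5G39740), which carries 5S RNA into the large subunit, rose by 1.11 ± 0.08, and EMB2296 (AT2G18020), an L2-type (L8) gene, rose by 1.06 ± 0.08. Without high R/FR replicate 2 or low R/FR replicate 1 the count at 90 min was 4 or 7. In cotyledons 10 rose and none fell at 180 min (median 0.24), and without high R/FR replicate 1, high R/FR replicate 2 or low R/FR replicate 2 there were 1, 4 and 0. Named by their p, these were EMB2296 (0.32 ± 0.08), SAG24 (AT1G66580, an L10 gene; 0.28 ± 0.07) and PGY1 (AT2G27530, an L10a gene known for leaf polarity; 0.34 ± 0.09). Of all genes, 8.02% were called higher and 11.5% lower in cotyledons at 180 min. The organ difference at 180 min was called for 29 of 31, all higher in the hypocotyl (median 0.67). For that difference 46.5% of all genes were called (23.7% higher, 22.8% lower). At 15 and 45 min in both organs, and at 90 min in cotyledons, edgeR called none of the 31, with 0, 1 and 3 at an unadjusted p under 0.05 in cotyledons at 15, 45 and 90 min and 1 and 0 in hypocotyls at 15 and 45 min. DESeq2 called 1 in cotyledons at 90 min and none in the other 4.

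Genes that make ribosomes and run translation moved in the same direction. Of 33 ribosome biogenesis genes 29 rose and 1 fell in hypocotyls at 180 min (median 1.05), and 9 rose in cotyledons (median 0.30). Over all genes, 31.2% were called higher and 32.6% lower in hypocotyls, and 8.02% and 11.5% in cotyledons. NOP56 (AT1G56110), a core protein of the box C/D particles that methylate ribosomal RNA, rose from 39.3 and 39.9 CPM to 102 and 96.7 CPM in hypocotyls (1.32 ± 0.09), and by 0.66 ± 0.10 in cotyledons. The related gene AT5G27120, listed as NOP58, rose from 7.71 and 9.17 CPM to 16.5 and 19.6 CPM in cotyledons (1.09 ± 0.15). OLI2 (AT5G55920), a ribosomal RNA methyltransferase homologue, rose by 1.69 ± 0.12 and AT5G08180, an NHP2-type protein, by 1.29 ± 0.10 in hypocotyls, and PUM24 (AT3G16810) rose by 0.63 ± 0.12 in cotyledons. The gene that fell in hypocotyls was AT4G31420, described as a zinc finger protein, by 0.48 ± 0.08.

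Of 25 translation factor genes 22 rose and 1 fell in hypocotyls at 180 min (median 0.75), and 1 rose in cotyledons. Of all genes, 31.2% were called higher and 32.6% lower in hypocotyls, and 8.02% and 11.5% in cotyledons. The RNA helicase genes EIF4A-2 (AT1G54270) and EIF4A1 (AT3G13920) rose by 1.2 ± 0.07 and 1.01 ± 0.07 in hypocotyls, and TIF3B1 (AT5G27640), an eIF3 subunit, by 0.78 ± 0.07. PAB2 (AT4G34110), a poly(A)-binding protein, fell by 0.20 ± 0.06. In cotyledons the elongation factor 1A gene AT1G07920 rose by 0.26 ± 0.09. Without high R/FR replicate 1, high R/FR replicate 2 or low R/FR replicate 2 the cotyledon count was 0, and without low R/FR replicate 1 it was 2. Of 11 genes that control ribosome production and growth 7 rose and 1 fell in hypocotyls, and 4 rose without high R/FR replicate 3 or without low R/FR replicate 1. Of all genes 31.2% were called higher and 32.6% lower in hypocotyls at 180 min, and 63.8% in either direction. The total called in this list is close to that background, while within the list more genes rose than fell. AT3G51800, homologous to the growth regulator EBP1, rose by 1 ± 0.08. The S6 kinase gene PK1 (AT3G08730) rose by 0.94 ± 0.08 and TAP46 (AT5G53000), a phosphatase subunit in the TOR pathway, by 0.85 ± 0.08. LST8-1 (AT3G18140), a partner of TOR, fell by 0.35 ± 0.07. In cotyledons AT3G51800 rose by 0.26 ± 0.08 and the other S6 kinase gene, S6K2 (AT3G08720), fell by 0.50 ± 0.16. The former call ended without high R/FR replicate 1 or 2 or low R/FR replicate 2, and the latter without high R/FR replicate 2 or low R/FR replicate 1 or 2.

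**Figure D5:**
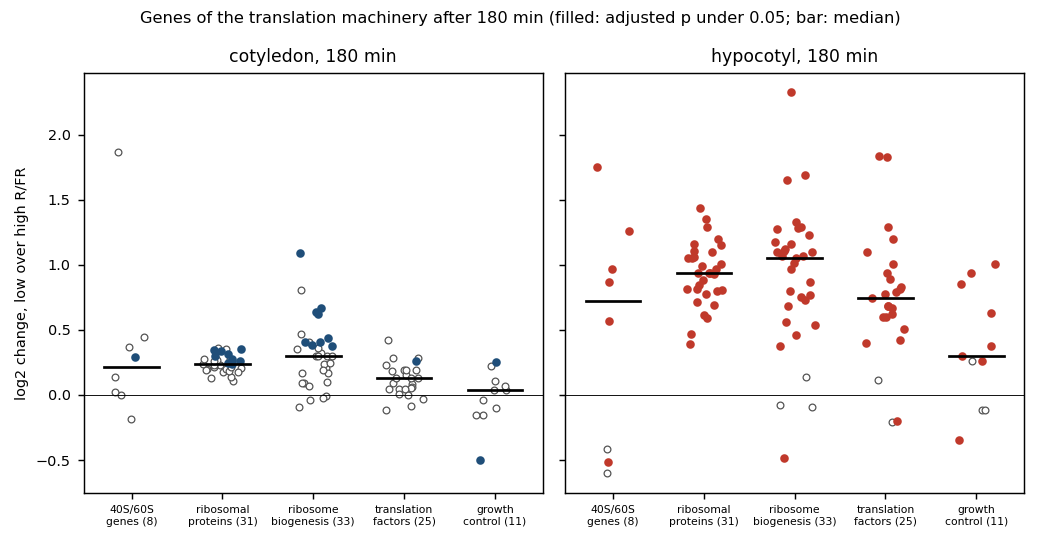
Log2 change in low over high R/FR at 180 min (y axis) of each gene of the 40S/60S-described set and of the 4 related lists, in cotyledons (left) and hypocotyls (right), filled where the adjusted p was under 0.05, with bars at medians. In hypocotyls the medians of the 8 genes and of the ribosomal protein panel lie at 0.72 and 0.94, and in cotyledons at 0.21 and 0.24.

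Markers of other cell types also moved with the hypocotyl result at 180 min. All 5 mesophyll genes were lower in low R/FR (median -0.54), and their summed level went from 23830 to 25750 CPM in high R/FR to 15100 to 15760 CPM in low R/FR. Of 6 shoot apex genes tested 3 were lower, where 32.6% of all genes were called lower. The 10 listed summed to 310 to 315 CPM in high and 198.2 to 212.8 CPM in low R/FR. In high R/FR 4 listed apex genes had no count in either library, while in low R/FR every listed apex gene had counts. By edgeR and by DESeq2 none of 8 genes of dividing cells was called in hypocotyls at 180 min, and none had an unadjusted p under 0.05. There they summed to 31.8 to 32.9 CPM in high and 30.3 to 33.6 CPM in low R/FR. The part of these markers in the changes of P40, RPSAb and RPL18AA was not tested.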

How the data were processed

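Gene counts of 36 libraries (18 groups of 2), from stranded TruSeq libraries per the labels' protocols, were used as deposited. The submitters' processing notes name HTSeq 0.5.4p3, TopHat2 2.0.9 with Bowtie, cutadapt 1.2.1, limma 3.18.2, edgeR 3.4.0 and the TAIR10 build; the counting settings are not given in the sources used here. The authors' deposited tables hold log2 fold changes and p-values, used for descriptions and the values credited to them. The 5 summary lines of the count table stayed out. They held 8.28% to 30.0% of each library's column total, in which unaligned reads stood at 0.

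Counts were filtered (filterByExpr, minimum count 10, total 15; 20126 genes kept), scaled by TMM and fitted with 1 mean per group in edgeR 4.0.16 (robust quasi-likelihood; R 4.3.3), with Benjamini-Hochberg adjustment at 0.05. The organ comparison used 20 high R/FR libraries with time as a factor (19825 genes). A standard error is the log2 change divided by the square root of F. CPM are counts scaled to each library's tested counts after TMM. The script was tested on simulated data. Alternatives were RLE scaling, TMM without the 8 genes, no filter, a replicate block, each organ's 18 libraries, DESeq2 1.42.0 and leaving out each library. Intervals on counts are exact and cover counting error only. Sequences are RefSeq's (TAIR10.1), compared with BLAST+ 2.17.0. Genes named in comparisons were those called in each, or the smallest p where none was; list genes were up to 3 called each way with the smallest p. The genes, lists and tests were chosen with earlier results of these data known.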

Additional observations from a re-analysis of the deposited data

Results flagged for a closer look

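The results below were singled out because a test of the difference itself, between the organs or between 2 times, passed an adjusted p of 0.05 (edgeR's quasi-likelihood test). With 2 libraries per group, no group was large enough to be searched for an outlying sample.

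At 90 min the response to low R/FR differed between hypocotyl and cotyledon by 0.99 (log2) for RPSAb, by -0.57 for RPL18AA and by -1.08 for AT1G80800. At 180 min it differed by 1.16 for RPSAb, by 0.58 for P40 and by -0.51 for RPL18AA. Within the hypocotyl the response at 180 min exceeded that at 90 min by 1.3 for AT1G31355 and by 0.51 for P40. The AT1G80800 call was lost with DESeq2 (adjusted p = 0.0667) and, as given above, without any 1 of its libraries. Both P40 calls also ended without some libraries, as given above.

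In high R/FR the change from 0 to 180 min differed between hypocotyl and cotyledon by 1.75 for RPSAb, by 0.7 for P40, by -0.65 for RPL18AA, by -1.08 for AT1G80800 and by 4.14 for AT5G42445. This last value is a fitted change against a group with 1 count in all and is no bound on the size. The AT1G80800 difference stood at -0.34 without hypocotyl replicate 1 at 0 min. Its call was lost with RLE scaling, no filter and DESeq2 (adjusted p = 0.0518, 0.061 and 0.0766).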

How the results depend on the processing

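No called log2 change of the 8 genes changed sign under any alternative run, while some that were not called did. Of the log2 changes of the 8 genes under settings other than leaving out a library, 741 kept their side of the threshold and 15 called ones fell below it. In hypocotyls at 180 min 3 genes rose, against 5, with no filter on low counts, with the organ's own 18 libraries and with DESeq2. With the organ's own libraries 7 of the 8 genes were tested, and AT5G42445 was not among them. The organ difference at 90 min kept 1 lower gene with DESeq2, and that in the change over time, chosen after seeing the data, kept 1 lower gene with RLE scaling, no filter or DESeq2. As the median over the genes in place of the sum, the share in low over high R/FR at 90 min was 1.115 in cotyledons and 0.929 in hypocotyls, below 1 where the sum gave 1.19. AT1G09486 lost its call at 180 min under RLE scaling, no filter, the replicate block, the organ's own libraries and DESeq2, and AT5G42445 with no filter and with DESeq2. The cause was not tested.

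Leaving out 1 library at a time gave these ranges of called genes. Low against high R/FR had 0 to 1 higher in cotyledons at 180 min, 0 to 1 higher in hypocotyls at 15 min, 1 to 2 higher at 90 min, and 3 to 4 higher and 1 lower at 180 min. The organ difference had 1 higher and 1 lower at 90 min and 1 to 3 higher at 180 min. The response at 180 against 90 min had 1 to 2 higher in hypocotyls. The change over 180 min had 1 to 2 higher and 5 lower in cotyledons, 2 to 3 lower in hypocotyls, and 2 to 5 higher and 1 to 2 lower for the difference. The organ comparison had 2 higher and 5 to 6 lower.

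With the replicate number as a block 4 genes rose in hypocotyls at 180 min. Correlations of same-numbered samples were -0.165 to 0.073 between lights, -0.016 and 0.108 between times, and 0.054 to 0.14, all positive, between organs. They did not all exceed 0.1, and the labels used here do not say that a number marks shared seedlings, so whether the numbers pair the organs was not settled. The organ call of AT2G24110 ended with the block, RLE scaling, no filter and DESeq2. With the all-gene median shift of 0.11 over time in cotyledons reduced by RLE scaling to 0.04, P40 and RPSAb still fell. At the lowest levels, such as 0 to 21 counts for AT5G42445, depth limits what could be detected.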
